A study of Mus musculus with 35 samples.

Results

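The genes carried by mitochondrial DNA (mtDNA) were examined in RNA-seq counts of cultured mouse blood progenitors that expressed NUP98-HOXA9 constructs. Members were all genes of the count table whose symbol begins with mt-, which gave 37 of 49671 genes. They comprised 13 protein-coding genes, 2 rRNA genes and 22 tRNA genes, all placed on chromosome M of GRCm38 (mm10) by GENCODE M21. After a filter on low counts, 15 of the 37 were tested: the 13 protein genes and both rRNA genes, and none of the tRNA genes. No measured value entered the choice of members.

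The cells were lineage-negative bone marrow cells of C57Bl/6 mice of both sexes, transduced with lentivirus and sorted for fluorescence. The paper sorted Empty cells for mCherry and construct cells for both mCherry and mEGFP, so the sort differed between Empty and every construct. Cells were harvested after 1 week in methylcellulose medium with myeloid and erythroid growth factors and GM-CSF. Each of 7 groups held 5 libraries. Empty received the vector without a fusion protein, and G-NHX9 received NUP98-HOXA9 fused to mEGFP, in which the phenylalanine-glycine (FG) repeats of NUP98 are joined to the HOXA9 homeodomain. The other constructs altered this fusion and carried the same mEGFP. G-NHX9-8FA and G-NHX9-21FGAA carried mutations of a smaller and a larger number of FG motifs. G-NHX9-midi held a shortened NUP98 part without the GLEBS domain, G-NHX9-midi-21FGAA combined the shortened part with the larger set of FG mutations, and G-NHX9-DDNA had a homeodomain mutated to weaken DNA binding. Donor age was given as 8 weeks for 32 libraries, and as 9 weeks for Empty replicate 4, 10 weeks for Empty replicate 5 and 11 weeks for G-NHX9 replicate 1. Each library came from a transduced pool and not from a clone, and the labels do not say whether replicates came from separate mice, so p-values measure the spread between these libraries, which may be technical.

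Mammalian mtDNA is a small circular genome transcribed from both strands into long precursors by the mitochondrial RNA polymerase POLRMT with the factors TFAM and TFB2M. The precursors are cut mostly at the tRNAs that lie between the other genes, and the resulting mRNAs are stabilised by proteins such as LRPPRC. The protein genes encode core subunits of respiratory complexes I, III, IV and V, whose remaining subunits are encoded in the nucleus and imported, and the rRNAs build the mitochondrial ribosome that translates them. All protein genes but mt-Nd6 are read from the same template strand, and mt-Nd6 lies on the opposite strand. The nuclear genome also holds inserted copies of mtDNA, and the mouse reference has a long, nearly identical one on chromosome 1.

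A read that matches both that copy and a member cannot be placed by its sequence alone. The windows around the bases that differ are therefore shown first. Annotated pseudogenes on the minus strand of chr1:24611535-24616197 were collinear with chrM:6390-11042, on the plus strand. Over the aligned bases, mt-Co2, mt-Atp6, mt-Co3, mt-Nd4l and the first part of mt-Nd4 were identical to their copies. mt-Co1 and mt-Nd3 each differed at 1 base, A1066T and T3C, with the gene's base first and positions counted from 1 at the gene's 5′ end. The differing base is in capitals in the windows below, which are written 5′ to 3′ from GENCODE M21 transcripts and lie at chrM:6390-6433 (plus strand), chr1:24616145-24616188 (minus strand), chrM:9459-9501 (plus strand) and chr1:24613077-24613119 (minus strand).
mt-Co1: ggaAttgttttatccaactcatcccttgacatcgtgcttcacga
Gm29216: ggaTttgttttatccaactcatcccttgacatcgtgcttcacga
mt-Nd3: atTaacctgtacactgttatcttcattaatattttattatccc
Gm28438: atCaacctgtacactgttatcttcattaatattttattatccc

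The 3′ end of mt-Co3 is shown because the annotation of the copy, Gm28437, stops 1 base before the gene does. The chromosome 1 base at that position was not read. The last 120 bases of the gene follow, chrM:9271-9390 on the plus strand, with the base past the annotated copy in capitals.
mt-Co3: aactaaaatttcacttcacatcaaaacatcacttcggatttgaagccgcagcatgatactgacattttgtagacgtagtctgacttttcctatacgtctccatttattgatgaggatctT

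The ends of mt-Nd5 and mt-Nd6 are shown because these genes face each other and share 14 base pairs, in capitals, at chrM:13552-13565. The stretch of mt-Nd5 is chrM:13506-13565 on the plus strand and that of mt-Nd6 is chrM:13552-13611 on the minus strand. The libraries were made with a stranded kit, but whether strand was used in counting is not given in the sources used here. Without strand, reads of mt-Nd6 and of the RNA from the other strand across it cannot be told apart.
mt-Nd5: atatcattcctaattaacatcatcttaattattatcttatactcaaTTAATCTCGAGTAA
mt-Nd6: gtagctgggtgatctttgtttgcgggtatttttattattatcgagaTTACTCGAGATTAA

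The libraries held between 31559914 and 75810659 counts. Hoxa9, whose sequence is part of each fusion, averaged 0.975 CPM (counts relative to the scaled library size) in Empty and 96.6 in G-NHX9, 33.8 in G-NHX9-8FA, 34.6 in G-NHX9-midi and 18.9 in G-NHX9-DDNA, but 3.28 in G-NHX9-21FGAA and 1.12 in G-NHX9-midi-21FGAA. The last did not differ from Empty (95% interval of the log2 fold change −0.64 to 0.96, adjusted p = 0.82), and reads of the transgene and of the mouse gene cannot be told apart. Of markers of B and T cells, which a lineage depletion removes, Cd3e, Cd4, Cd8a, Cd79a, Ms4a1 and Pax5 were at 0 in at least 10 libraries each and at most 0.616 CPM in any library, whereas Cd3d was counted in every library, at 0.0332 to 0.385 CPM. Myeloid, mast cell and erythroid markers were present and differed between groups. In bulk RNA, fewer cells of a type and less RNA per cell cannot be told apart. CPM here are scaled by the trimmed mean of M values (TMM), and all differences below are from edgeR's quasi-likelihood test over 17166 genes, with Benjamini-Hochberg adjustment of p-values over these genes for each comparison and a threshold of 0.05.

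The mtDNA genes took between 1.61% and 4.13% of the counts of a library, with a median of 2.76%. Over all libraries the rRNA genes held 28462777 counts, the protein genes 13299320 and the tRNA genes 189. The summed level of the 13 protein genes was 9399 ± 307.6 CPM in Empty, 8073 ± 1460 in G-NHX9, 10353 ± 1221 in G-NHX9-8FA and 9082 ± 1512 in G-NHX9-midi (mean ± SD, n = 5). Means were lower with the larger set of FG mutations or the altered homeodomain. They were 7327 ± 1435 CPM in G-NHX9-21FGAA, 7510 ± 617.5 in G-NHX9-midi-21FGAA and 7609 ± 659 in G-NHX9-DDNA. All 5 libraries of G-NHX9-midi-21FGAA and of G-NHX9-DDNA lay below the Empty range of 9008 to 9758 CPM. Of the 5 G-NHX9-21FGAA libraries, 1 lay inside it. G-NHX9 replicates 2 to 5, at 6879 to 7737 CPM, also lay below this range, and replicate 1, at 10617, lay above it. These sums are descriptions. They are carried by mt-Co1, which held 83.2% of the protein-gene counts.

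Per kilobase of gene, levels spanned more than 4 orders of magnitude, and their order was shared by most libraries. mt-Rnr2, the large-subunit rRNA, had the highest median, 10622 CPM per kb, and mt-Co1, the catalytic subunit of complex IV, followed with 4417. mt-Rnr1, the small-subunit rRNA, stood at 1472 CPM per kb. Each of these lay above the next gene in the order in at least 33 of the 35 libraries. mt-Nd1 of complex I (511 CPM per kb) and mt-Cytb of complex III (434) came next, with mt-Nd1 above mt-Cytb in 29 libraries. mt-Nd5 (81.4 CPM per kb), mt-Nd4 (80.4) and mt-Nd2 (68.0), all of complex I, then lay close together, although mt-Nd5 was above mt-Nd4 in 32 libraries and mt-Nd4 above mt-Nd2 in 31.

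The lower part of the order ran from mt-Nd6 (37.5 CPM per kb) through mt-Co3 (22.6), mt-Co2 (17.3) and mt-Nd3 (15.98) to the genes of complex V, mt-Atp8 (3.41) and mt-Atp6 (3.12), and ended with mt-Nd4l (0.931). Some of these steps were unclear, since mt-Co2 exceeded mt-Nd3 in 23 libraries and mt-Atp8 exceeded mt-Atp6 in 18. At the others, mt-Nd6 lay above mt-Co3 and mt-Co3 above mt-Co2 in 32 libraries each, and mt-Nd3 above mt-Atp8 and mt-Atp6 above mt-Nd4l in all 35. mt-Co1 alone made up a median of 78.2% of the summed per-kilobase level of the 13 protein genes (range 69.1% to 83.1%). mt-Nd4l rested on between 2 and 57 counts per library and spanned 35.8-fold, the widest range of the 15 tested members, and mt-Nd1 spanned 2.06-fold, the narrowest.

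**Figure D1:**
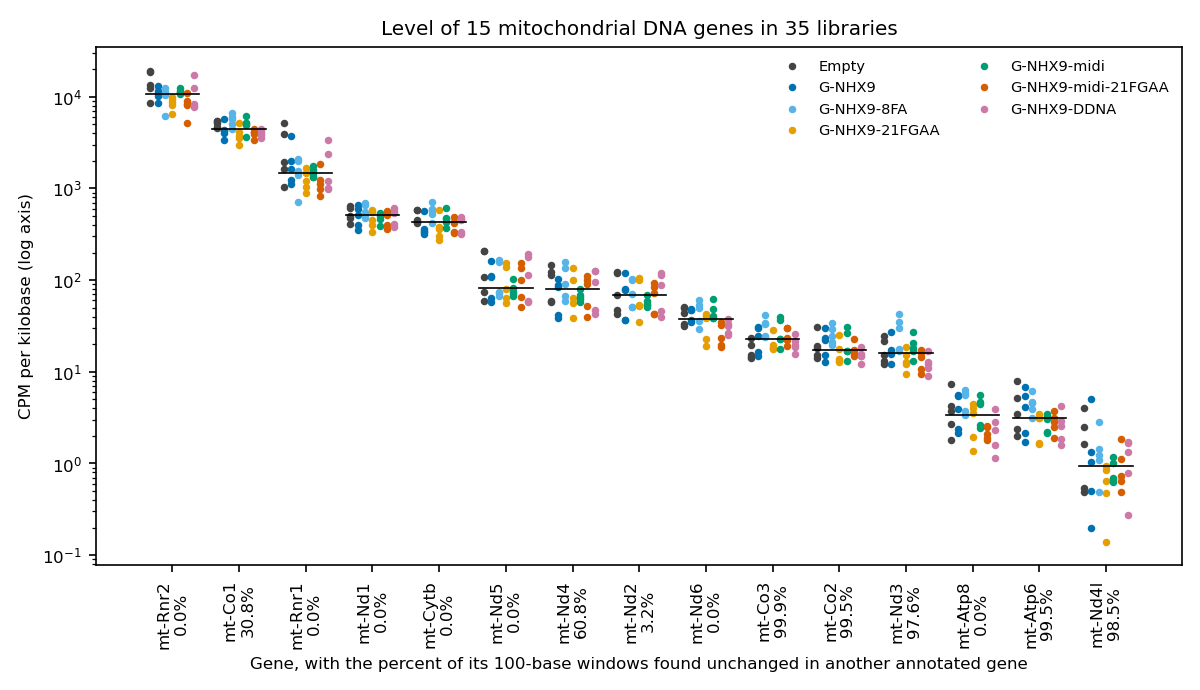
Level of the 15 tested mtDNA genes in each of the 35 libraries, in CPM per kilobase of gene on a log axis, coloured by group, with the median as a line. The percentage beside each name is the share of the gene's 100-base windows that also occur in another annotated transcript. The genes with shares above 97% lie in the lower part of the order, as do mt-Nd6 and mt-Atp8 with 0%. mt-Rnr2, mt-Co1 and mt-Rnr1 are at the top.

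Among the members with low levels, mt-Co2, mt-Co3, mt-Atp6, mt-Nd3 and mt-Nd4l share most of their sequence with the chromosome 1 copy. mt-Nd6 and mt-Atp8 were also low and shared no window with an annotated transcript. Of all 100-base windows of the gene, 99.9% for mt-Co3, 99.5% for mt-Co2 and mt-Atp6, 98.5% for mt-Nd4l and 97.6% for mt-Nd3 occurred unchanged in another annotated transcript. This share was 60.8% for mt-Nd4, 30.8% for mt-Co1, 3.2% for mt-Nd2 and 0 for the remaining 7 tested members. mt-Atp8 had no such window among annotated transcripts, but most of the chromosome 1 stretch that its position corresponds to is unannotated, and the genome sequence was not used here. Windows have the read length on the labels, 100 bases; the study's methods give a longer read, for which the shares were not computed.

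The copies themselves were counted in every library for mt-Co2, mt-Co3 and mt-Atp6, and each time held more counts than the gene. The copy's share of the counts of gene and copy together was a median of 75.0% for Gm28437 beside mt-Co3 (range 71.3% to 77.7%), 79.99% for Gm28661 beside mt-Co2 (75.9% to 84.1%) and 86.8% for Gm10925 beside mt-Atp6 (80.4% to 88.7%). It was 15.9% for Gm28438 beside mt-Nd3 (8.86% to 20.4%) and 0.702% for Gm29216 beside mt-Co1. For Gm10222 beside mt-Nd4l it was 9.09%, on totals of 59 and 532 counts, and for Gm28439 beside mt-Nd4 0.534%. How reads that match both places were assigned is not given in the sources used here. Values of these genes are therefore uncertain as levels. Each call on them by the fit with 1 mean per group is given below together with the copy. Calls that the replicate block added stand without the copy.

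Few members passed the test in any comparison. Against Empty, the protein genes counted 2 higher in G-NHX9-8FA, 1 higher in G-NHX9-midi and 1 lower in G-NHX9-midi-21FGAA, and both rRNA genes were lower in G-NHX9-21FGAA and in G-NHX9-midi-21FGAA. Of all tested genes, 26.6% were called in G-NHX9-8FA, 40.5% in G-NHX9-midi, 27.1% in G-NHX9-21FGAA and 16.9% in G-NHX9-midi-21FGAA. No member was called in G-NHX9 against Empty, where 32.1% of all genes were, or in G-NHX9-DDNA against Empty, where 17.2% were. DESeq2 also called none of the protein genes in these 2 comparisons. In both, libraries with the same replicate number deviated together, and with that number as a block mt-Cytb was called lower in G-NHX9, and mt-Nd6 and mt-Co1 lower in G-NHX9-DDNA, with the values given below. At an unadjusted p under 0.05, 0 members differed in G-NHX9 and 1, lower, in G-NHX9-DDNA. The 6 comparisons share the Empty libraries.

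Between constructs, 1 protein gene was higher in G-NHX9-8FA than in G-NHX9 (14.5% of all genes called) and 1 was lower in G-NHX9-midi-21FGAA than in G-NHX9-midi (43.2%). Against G-NHX9, no member was called in G-NHX9-21FGAA (17.2% of all genes) or in G-NHX9-DDNA (22.1%), with 1 protein gene lower at an unadjusted p under 0.05 in each. No member was called for the difference between the effect of the larger set of FG mutations in the full-length and in the shortened fusion (12.6% of all genes), and 0 passed an unadjusted p under 0.05. DESeq2 called none of the protein genes in these 3 comparisons either, and the block added mt-Nd6, lower in G-NHX9-DDNA than in G-NHX9. The median size of the log2 fold change of the 13 protein genes against Empty was between 0.14 in G-NHX9 and 0.36 in G-NHX9-21FGAA, beside 0.24 to 0.36 for all genes. With its sign kept, the median was −0.36 in G-NHX9-21FGAA, −0.34 in G-NHX9-midi-21FGAA and −0.34 in G-NHX9-DDNA, with 12, 12 and 11 of the 13 genes below 0, beside medians of −0.02 to −0.01 for all genes, and TMM lowered these medians of all genes by 0.13 to 0.19.

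**Figure D2:**
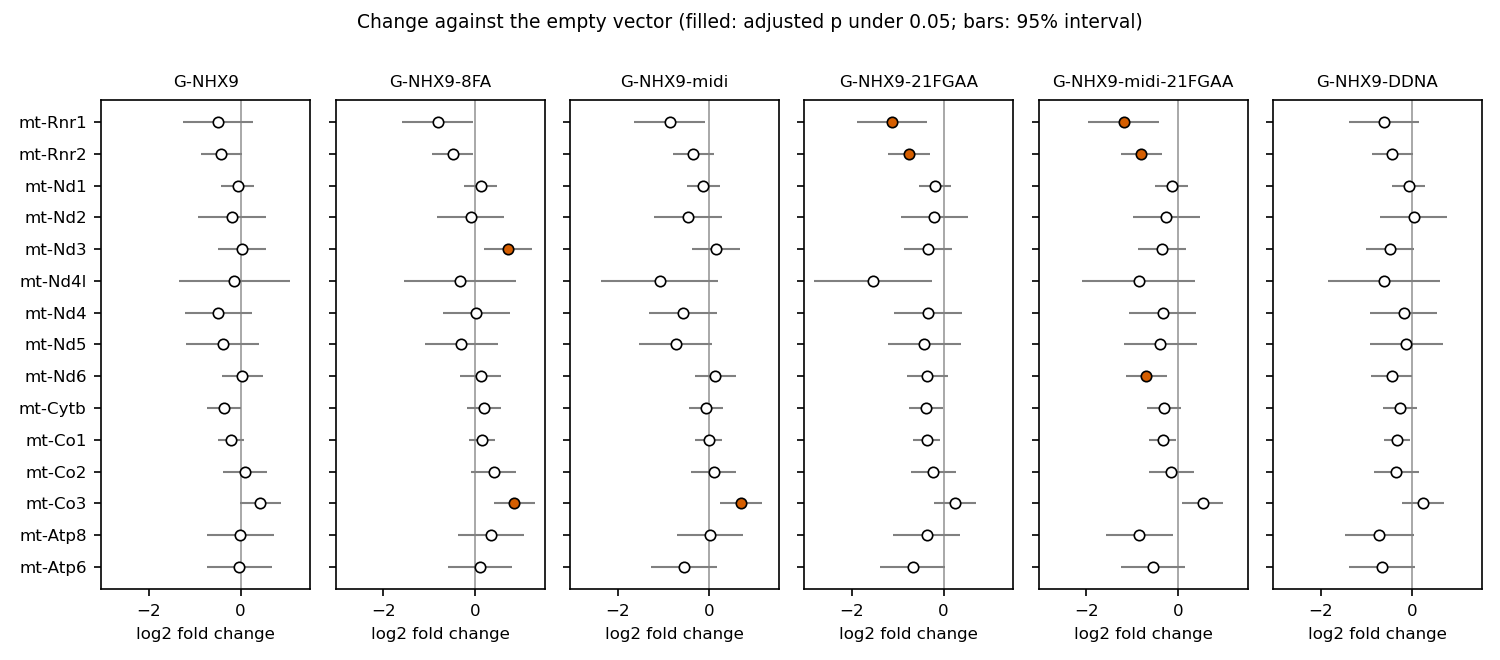
Log2 fold change against Empty of the 15 tested mtDNA genes, a panel for each of the 6 constructs, with 95% intervals from the fit over all 35 libraries (5 per group); filled points have an adjusted p under 0.05. Filled points are mt-Co3 and mt-Nd3 in G-NHX9-8FA, mt-Co3 in G-NHX9-midi, both rRNA genes in G-NHX9-21FGAA, and both rRNA genes with mt-Nd6 in G-NHX9-midi-21FGAA.

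The rRNA genes were lower than in Empty in both groups with the larger set of FG mutations. mt-Rnr1 (ENSMUSG00000064337.1, chrM:70-1024) measured 980.5, 1864, 1554, 3711 and 4966 CPM in Empty replicates 1 to 5. In G-NHX9-21FGAA it measured 1419, 987, 1160, 846 and 1590, and in G-NHX9-midi-21FGAA 1064, 1188, 947, 791 and 1752. Empty replicates 4 and 5 stood highest and replicates 1 and 3 lay within the range of both mutants, so that the groups overlapped. The log2 fold change was −1.12 ± 0.38 (SE) in G-NHX9-21FGAA (adjusted p = 0.025) and −1.19 ± 0.38 in G-NHX9-midi-21FGAA (adjusted p = 0.028).

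mt-Rnr2 (ENSMUSG00000064339.1, chrM:1094-2675) measured 13645, 21158, 19542, 29715 and 30548 CPM in Empty. In G-NHX9-21FGAA it measured 15877, 12744, 13841, 10295 and 14922, and in G-NHX9-midi-21FGAA 12719, 14363, 13093, 8193 and 17498. Here only Empty replicate 1 lay within the range of either mutant. mt-Rnr2 fell by 0.76 ± 0.22 (adjusted p = 0.011) and by 0.80 ± 0.22 (adjusted p = 0.013) on the log2 scale.

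These calls depended on Empty replicates 4 and 5, the older donors, but held with the replicate number as a block. In G-NHX9-21FGAA the block gave −0.93 for mt-Rnr1 (adjusted p = 0.0072) and −0.72 for mt-Rnr2 (0.0063). In G-NHX9-midi-21FGAA it gave −1.03 (adjusted p = 0.0059) and −0.77 (0.0065). Among libraries labelled 8 weeks, mt-Rnr1 differed by −0.27 in G-NHX9-21FGAA (adjusted p = 0.66) and −0.35 in G-NHX9-midi-21FGAA (adjusted p = 0.61), and mt-Rnr2 by −0.41 (adjusted p = 0.25) and −0.45 (adjusted p = 0.24). Without Empty replicate 5 alone, mt-Rnr1 differed by −0.74 (adjusted p = 0.16) and −0.81 (adjusted p = 0.15), and without Empty replicate 4 by −0.95 (adjusted p = 0.081) and −1.02 (adjusted p = 0.087). The mt-Rnr1 call was also lost without G-NHX9-21FGAA replicate 2 (adjusted p = 0.060) or 4 (0.072), and without G-NHX9-midi-21FGAA replicate 1 (0.051), 3 (0.066) or 4 (0.078). It missed with the compared groups alone (0.055 and 0.062) and, in G-NHX9-21FGAA, without TMM (0.062). The mt-Rnr2 call was lost without Empty replicate 5 in G-NHX9-21FGAA (adjusted p = 0.050) and without Empty replicate 4 (0.052) or G-NHX9-midi-21FGAA replicate 4 (0.051) in G-NHX9-midi-21FGAA. It lay at the threshold, at 0.050 after rounding but below it, without TMM in G-NHX9-21FGAA, and without Empty replicate 5 or with the compared groups alone in G-NHX9-midi-21FGAA. In G-NHX9 and G-NHX9-DDNA, replicates 4 and 5 were also highest for mt-Rnr1, at 1903 and 3556 and at 2241 and 3247 CPM. These came from 8-week donors. In both groups with the larger set of FG mutations, replicate 5 was highest and replicate 4 lowest. G-NHX9 replicate 1, from the 11-week donor, measured 1541 CPM. Within Empty, age and these libraries cannot be told apart, and the part of age was not tested.

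The remaining constructs gave rRNA differences below 0 that missed the threshold. For mt-Rnr1 they were −0.50 in G-NHX9 (95% interval −1.26 to 0.27), −0.82 in G-NHX9-8FA (−1.58 to −0.05, adjusted p = 0.11), −0.87 in G-NHX9-midi (−1.63 to −0.10, adjusted p = 0.064) and −0.61 in G-NHX9-DDNA (−1.38 to 0.15). mt-Rnr1 passed without Empty replicate 1 in G-NHX9-8FA (adjusted p = 0.036), and without Empty replicate 1 (0.021) or 3 (0.040) in G-NHX9-midi. In G-NHX9-8FA and G-NHX9-midi against Empty, the replicate number was not taken to pair the libraries. Under the replicate block mt-Rnr1 also passed in G-NHX9-8FA (−0.70, adjusted p = 0.039) and G-NHX9-midi (−0.69, 0.032). Among 8-week libraries its differences there were 0.003 and −0.046. For mt-Rnr2 the 95% intervals were −0.87 to 0.04 in G-NHX9, −0.94 to −0.04 in G-NHX9-8FA, −0.80 to 0.11 in G-NHX9-midi and −0.89 to 0.02 in G-NHX9-DDNA. mt-Rnr2 passed without Empty replicate 1 in G-NHX9 (adjusted p = 0.049) and G-NHX9-8FA (0.031), and without G-NHX9-DDNA replicate 5 in G-NHX9-DDNA (0.026). The rRNA-to-protein ratio of counts ran from 0.871 to 3.94 over libraries, and the ratio of mt-Rnr2 to mt-Rnr1 from 3.49 to 8.72. The kit removes rRNA from total RNA, and whether its probes reach mitochondrial rRNA is not given in the sources used here, so that level and depletion cannot be told apart. A list of 6 genes was taken as a proxy for carry-over of cytoplasmic rRNA, which the kit targets. It summed to between 8508 and 26057 CPM in Empty, highest in replicates 4 and 5. The sums were 10209 to 15764 CPM in G-NHX9-21FGAA and 9083 to 15473 in G-NHX9-midi-21FGAA. Replicates 4 and 5 were also highest in G-NHX9, at 14017 and 34963 CPM, and in G-NHX9-DDNA, at 17244 and 22944. In G-NHX9-midi-21FGAA, replicate 4, which was lowest for mt-Rnr1, had the highest sum. The part of carry-over in the mitochondrial rRNA counts was not tested. Most of the sum was Gm26917, with a mean of 12352 CPM in Empty. None of the 4 listed genes that were tested, Gm26917, Gm42418, Lars2 and Rn18s-rs5, was called in any comparison.

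Against Empty, erythroid markers were higher for 8 of 12 in G-NHX9-21FGAA and 10 of 12 in G-NHX9-midi-21FGAA, and none was lower. They summed to between 215.1 and 536.7 CPM in Empty, 454.3 and 1218 in G-NHX9-21FGAA, and 505.1 and 1144 in G-NHX9-midi-21FGAA. Mast cell and basophil markers were higher for 3 and 4 of 10, running from 1377 to 3774 CPM in Empty, from 3490 to 4845 in G-NHX9-21FGAA and from 2810 to 6480 in G-NHX9-midi-21FGAA. Stem and progenitor markers were higher for 6 and 3 of 10, at 235.7 to 321.1 CPM in Empty, 529.7 to 813.5 in G-NHX9-21FGAA and 293.4 to 777.5 in G-NHX9-midi-21FGAA. Of 10 macrophage markers, 4 were lower in G-NHX9-21FGAA and 1 in G-NHX9-midi-21FGAA, with 1 higher in each. Their sums were 2780 to 3593 CPM in Empty, 1494 to 2599 in G-NHX9-21FGAA and 2284 to 3182 in G-NHX9-midi-21FGAA. Of all genes, 14.7% and 9.59% were higher and 12.5% and 7.32% lower in the same order of groups. The part of these markers in the lower rRNA counts was not tested.

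**Figure D3:**
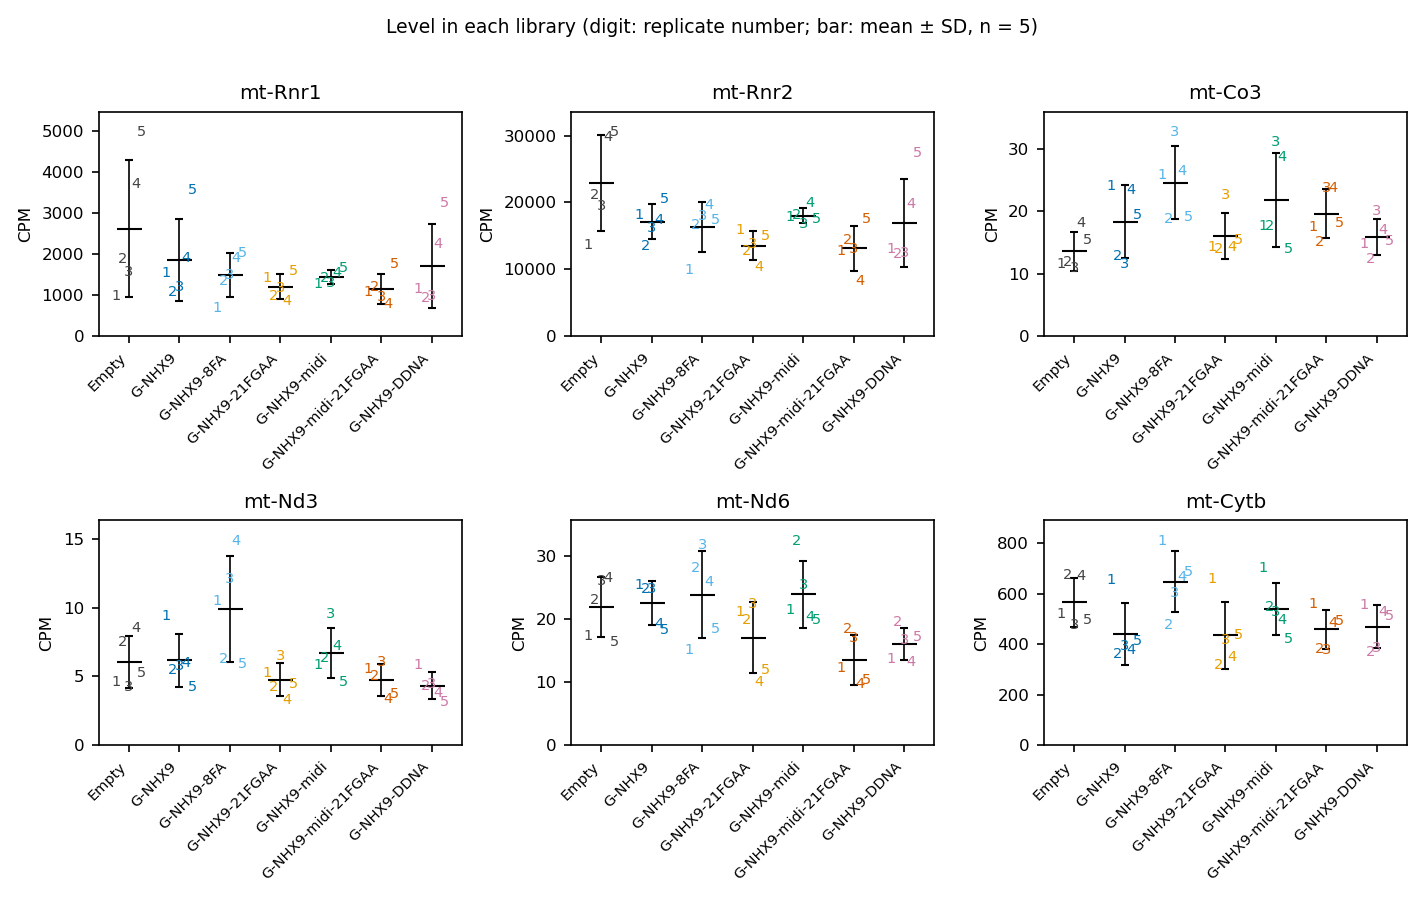
Level in CPM of mt-Rnr1, mt-Rnr2, mt-Co3, mt-Nd3, mt-Nd6 and mt-Cytb in every library by group; the digit is the replicate number and the bar is the mean with its SD (n = 5). Empty replicates 4 and 5 stand above the other Empty libraries for both rRNA genes, and the G-NHX9-8FA libraries stand above all Empty libraries for mt-Co3.

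Complex I, the NADH dehydrogenase that starts the respiratory chain, has 7 members, of which mt-Nd3 and mt-Nd6 were called. mt-Nd6 (ENSMUSG00000064368.1, chrM:13552-14070) measured 21.3, 32.4, 25.4, 20.2 and 19.9 CPM in G-NHX9-midi, and 12.1, 18.3, 17.0, 9.67 and 10.2 in G-NHX9-midi-21FGAA. The 2 groups did not overlap. mt-Nd6 fell by 0.82 ± 0.22 on the log2 scale (adjusted p = 0.0029), a level 0.565 times that of G-NHX9-midi, and the call held in all 19 alternative fits. Of all genes, 15.9% were lower without overlap in this comparison.

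Against Empty, at 17.3, 23.0, 26.0, 26.5 and 16.3 CPM, mt-Nd6 fell by 0.70 ± 0.22 in G-NHX9-midi-21FGAA (adjusted p = 0.028). The groups overlapped through Empty replicates 1 and 5. The call held in 11 of 19 alternative fits, among them the replicate block (−0.73, adjusted p = 0.0025). The call was lost without Empty replicate 2 (adjusted p = 0.057), 3 (0.076) or 4 (0.081), without G-NHX9-midi-21FGAA replicate 1 (0.061), 4 (0.095) or 5 (0.099), and with library sizes left without TMM (−0.56, adjusted p = 0.061) or 8-week libraries alone (−0.71, adjusted p = 0.074). In the full-length fusion, the difference of G-NHX9-21FGAA from G-NHX9 was −0.40 (95% interval −0.85 to 0.05, adjusted p = 0.25), and the difference between the 2 effects, 0.42, had an interval of −0.21 to 1.06 (adjusted p = 0.43). G-NHX9-DDNA differed by −0.45 from Empty (adjusted p = 0.16) and by −0.49 from G-NHX9 (adjusted p = 0.12). With the replicate number as a block these became −0.44 (adjusted p = 0.048) and −0.48 (adjusted p = 0.027).

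The level of mt-Nd6 per kilobase was between 3.49 and 9.74 per 1000 of the summed per-kilobase level of the other protein genes. Its median was 6.76 in Empty, 7.97 in G-NHX9-midi and 4.01 in G-NHX9-midi-21FGAA. Between these last groups, all 12 erythroid, all 10 mast cell and basophil and all 8 megakaryocyte markers were higher in G-NHX9-midi-21FGAA. Of 12 neutrophil markers 8 were lower and 2 higher, beside 22.2% and 21% of all genes. Of 8 eosinophil markers 7 were higher and 1 lower, with sums of 37.7 to 121 CPM in G-NHX9-midi and 819.5 to 2353 in G-NHX9-midi-21FGAA. Summed erythroid markers ran from 137.9 to 186.3 CPM in G-NHX9-midi and from 505.1 to 1144 in G-NHX9-midi-21FGAA, and mast cell and basophil markers from 542 to 993 and from 2810 to 6480. Their part in the result was not tested.

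mt-Nd3 (ENSMUSG00000064360.1, chrM:9459-9806) measured 4.61, 7.49, 4.25, 8.53 and 5.27 CPM in Empty and 10.5, 6.24, 12.1, 14.9 and 5.87 in G-NHX9-8FA. Replicates 1, 3 and 4 of G-NHX9-8FA lay above all Empty libraries and replicates 2 and 5 within their range. mt-Nd3 rose by 0.72 ± 0.26 on the log2 scale (adjusted p = 0.036) and was called in 11 of 19 alternative fits. Its copy Gm28438 rose by 0.95 (adjusted p = 0.0076), and gene and copy counted together by 0.75 (adjusted p = 0.023), a sum that was chosen after seeing the data. The call was lost without Empty replicate 1 (adjusted p = 0.091), 3 (0.10) or 5 (0.086), without G-NHX9-8FA replicate 1 (0.060), 3 (0.090) or 4 (log2 0.51, 0.17), without the filter on low counts (0.056) and with the compared groups alone (0.099).

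The other 5 genes of complex I were called in no comparison by the fit of 1 mean per group. mt-Nd1 (ENSMUSG00000064341.1) stayed nearest to its Empty level of 507 ± 94.6 CPM, with group means between 445 and 553 and 95% intervals against Empty that reached no further than −0.55 and 0.48. Intervals were wider for mt-Nd2, mt-Nd4 and mt-Nd5. In G-NHX9-midi they ran from −1.20 to 0.27 for mt-Nd2, from −1.32 to 0.16 for mt-Nd4 and from −1.53 to 0.07 for mt-Nd5. mt-Nd4l in G-NHX9-21FGAA, at 0.0414 to 0.276 CPM beside 0.144 to 1.20 in Empty, gave the largest difference from Empty among members, −1.54 (95% interval −2.84 to −0.25, adjusted p = 0.071).

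Complex III, which passes electrons from ubiquinol to cytochrome c, has 1 member, mt-Cytb (ENSMUSG00000064370.1, chrM:14145-15288), its cytochrome b. mt-Cytb measured 656, 362, 394, 379 and 411 CPM in G-NHX9 and 811, 477, 603, 665 and 685 in G-NHX9-8FA. All G-NHX9-8FA libraries lay above replicates 2 to 5 of G-NHX9, and replicate 1 of G-NHX9 lay within their range. mt-Cytb was higher in G-NHX9-8FA by 0.56 ± 0.19 (adjusted p = 0.040). It was called in 8 of 19 alternative fits, among them the replicate block (0.57, adjusted p = 0.0038). The replicate number was not taken to pair the libraries in this comparison. The call was lost when any of G-NHX9 replicates 2, 3, 4 and 5 (adjusted p = 0.10, 0.072, 0.11 and 0.12) or G-NHX9-8FA replicates 1, 3, 4 and 5 (0.13, 0.052, 0.073 and 0.070) was left out. It was also lost without TMM (0.43, adjusted p = 0.10), without the filter on low counts (0.055) and with the compared groups alone (0.086).

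Against Empty, where mt-Cytb was 519, 673, 475, 670 and 497 CPM, neither construct passed: the difference was −0.36 in G-NHX9 (adjusted p = 0.14) and 0.19 in G-NHX9-8FA (adjusted p = 0.48). With the replicate number as a block, mt-Cytb was lower in G-NHX9 than in Empty by −0.41 (adjusted p = 0.019). Neutrophil markers were higher in G-NHX9-8FA than in G-NHX9 for 5 of 12, summing to between 14369 and 34082 CPM against 8902 to 14535. All 12 erythroid markers were lower. Of all genes, 6.43% were higher and 8.04% lower in this comparison. Eosinophil markers were lower for 7 of 8, at 71.8 to 290 CPM in G-NHX9-8FA and 272.8 to 1020 in G-NHX9, megakaryocyte markers for 5 of 8, and stem and progenitor markers for 5 of 10. Their part in the result was not tested.

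Complex IV, the cytochrome c oxidase that reduces oxygen, has mt-Co1, mt-Co2 and mt-Co3, its catalytic core. mt-Co3 (ENSMUSG00000064358.1, chrM:8607-9390) was the member with the firmest difference from Empty. It measured 11.5, 11.8, 11.0, 18.2 and 15.3 CPM in Empty and 25.8, 18.7, 32.7, 26.5 and 19.1 in G-NHX9-8FA. Every G-NHX9-8FA library lay above every Empty library, as did those of 8.32% of all genes. mt-Co3 rose by 0.86 ± 0.22 (adjusted p = 0.0039) and was called in all 19 alternative fits, with adjusted p between 0.00068 and 0.019.

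In G-NHX9-midi, at 17.7, 17.7, 31.0, 28.6 and 13.9 CPM, mt-Co3 rose by 0.69 ± 0.22 (adjusted p = 0.013). Replicates 3 and 4 stood above the other libraries, and replicates 1, 2 and 5 lay within the Empty range. Without replicate 3 the difference was 0.53 (adjusted p = 0.061) and without replicate 4 it was 0.57 (adjusted p = 0.051). The values of G-NHX9-midi-21FGAA, 17.4, 15.1, 23.7, 23.8 and 18.2 CPM, gave 0.54 against Empty (adjusted p = 0.092), and 0.52 under the replicate block (adjusted p = 0.037). G-NHX9 differed by 0.43 (95% interval −0.02 to 0.89, adjusted p = 0.14).

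The copy Gm28437 moved with mt-Co3. It measured 35.3, 39.3, 34.1, 56.2 and 41.2 CPM in Empty and 82.4, 54.3, 89.7, 81.4 and 54.4 in G-NHX9-8FA. Gm28437 rose by 0.81 in G-NHX9-8FA (adjusted p = 0.0021) and by 0.63 in G-NHX9-midi (adjusted p = 0.0099). Gene and copy counted together gave 0.83 (adjusted p = 0.0022) and 0.65 (adjusted p = 0.0097). Since the annotated copy holds all but the last base of mt-Co3 unchanged, transcripts of the mtDNA and of chromosome 1 cannot be told apart in these counts.

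In both groups with more mt-Co3, neutrophil markers were higher for 9 of 12 (G-NHX9-8FA) and 5 of 12 (G-NHX9-midi, with 2 lower). Erythroid markers were lower for 11 and 10 of 12. Of all genes, 13.4% and 20.5% were higher and 13.2% and 20% lower. Neutrophil markers summed to between 7176 and 11636 CPM in Empty, 14369 and 34082 in G-NHX9-8FA, and 9686 and 22047 in G-NHX9-midi. Mast cell and basophil markers, lower for 7 and 8 of 10, ran from 1377 to 3774 CPM in Empty, from 653.6 to 1040 in G-NHX9-8FA and from 542 to 993 in G-NHX9-midi. Eosinophil markers were lower for 7 of 8 in each group, with 1 higher in G-NHX9-midi, and summed to between 1377 and 1916 CPM in Empty, 71.8 and 290 in G-NHX9-8FA, and 37.7 and 121 in G-NHX9-midi. All 8 megakaryocyte markers were lower in both, from 1075 to 1929 CPM in Empty to 481 to 559 in G-NHX9-8FA and 206 to 390 in G-NHX9-midi. No neutrophil marker was at 0 in any library, and of the erythroid markers Ermap was at 0 in 1. Their part in the result was not tested.

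**Figure D4:**
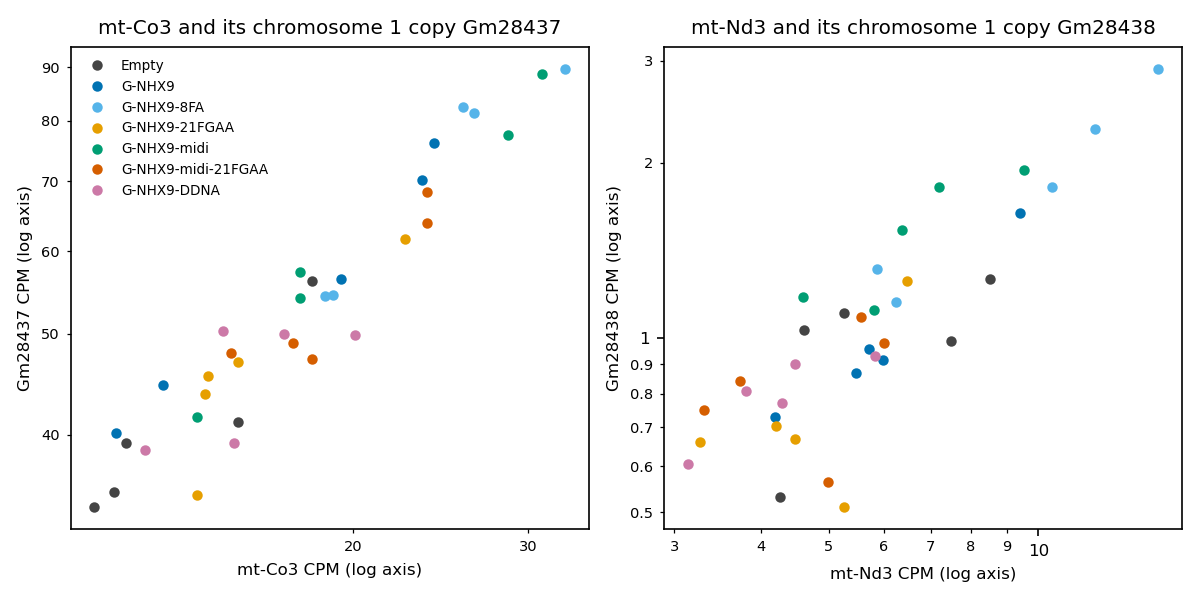
Level in CPM of mt-Co3 against its chromosome 1 copy Gm28437 and of mt-Nd3 against Gm28438, a point for each of the 35 libraries coloured by group, on log axes. Gm28437 lies above mt-Co3 in all libraries and Gm28438 below mt-Nd3, and the highest value of each of the 4 genes is a G-NHX9-8FA library.

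mt-Co1 (ENSMUSG00000064351.1, chrM:5328-6872) measured 8501, 7896, 8346, 7077 and 7203 CPM in Empty, 6953, 6373, 6318, 5153 and 6081 in G-NHX9-midi-21FGAA, and 6825, 5866, 6233, 5527 and 6476 in G-NHX9-DDNA. All libraries of both constructs lay below all Empty libraries, as did those of 5.49% and 6.31% of all genes. The fitted differences, −0.34 ± 0.14 in each, missed the threshold (adjusted p = 0.099 and 0.10). Under the replicate block they were −0.34 (adjusted p = 0.011) and −0.33 (adjusted p = 0.012). In G-NHX9-21FGAA, where replicate 1 stood at 7903 CPM and the others between 4652 and 6328, the difference was −0.37 (adjusted p = 0.051). The replicate block gave −0.39 there (adjusted p = 0.0022), although the number was not taken to pair the libraries of that comparison.

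mt-Co2 (ENSMUSG00000064354.1) was called in no comparison. It averaged 13.3 ± 4.51 CPM in Empty and between 10.4 and 17.6 in the constructs, with the highest mean in G-NHX9-8FA (95% interval against Empty −0.08 to 0.90). Complex V, the ATP synthase, has mt-Atp6 and mt-Atp8, whose genes overlap by 43 bases on the same strand, so that reads there match both. Neither was called. mt-Atp8 averaged 0.811 CPM in Empty and 0.443 in G-NHX9-midi-21FGAA, a difference of −0.84 (95% interval −1.58 to −0.10, adjusted p = 0.11). mt-Atp6 averaged 2.85 CPM in Empty and 1.78 in G-NHX9-21FGAA (−0.67, 95% interval −1.38 to 0.04, adjusted p = 0.16).

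The tRNA genes were almost without counts. No count fell on 16 of the 22, and mt-Tl1 had 2 counts and mt-Tq, mt-Tw and mt-Tp 1 each. The methionine and valine tRNAs, mt-Tm (chrM:3845-3913) and mt-Tv (chrM:1025-1093), held nearly all of the rest and are shown for that reason, on the plus strand.
mt-Tm: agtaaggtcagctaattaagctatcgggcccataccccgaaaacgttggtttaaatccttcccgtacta
mt-Tv: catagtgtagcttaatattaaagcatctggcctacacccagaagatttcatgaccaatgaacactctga

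mt-Tm had 157 counts in 34 libraries, at most 12 in any. Summed by group these were 19 in Empty, 15 in G-NHX9, 38 in G-NHX9-8FA, 22 in G-NHX9-21FGAA, 20 in G-NHX9-midi, 22 in G-NHX9-midi-21FGAA and 21 in G-NHX9-DDNA. mt-Tv, which lies between the rRNA genes, had 27 counts in 13 libraries. A count of 0 allows up to 3 counts, which at these library sizes is 0.0382 to 0.0996 CPM. Only counting error enters this limit. A tRNA is shorter than the read length of 100 bases on the labels. No tRNA gene passed the filter on low counts, so no difference between groups was tested.

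Much of the variation of several members followed the replicate number rather than the construct. In a decomposition of log2 CPM over the 35 libraries, the replicate number held 65.6% of the variance of mt-Nd2, 56.5% of mt-Nd5, 52.2% of mt-Nd1, 51.5% of mt-Nd4 and 42.2% of mt-Rnr1, beside a median of 14.9% over all tested genes. The group held 4.84% for mt-Nd2 and 7.12% for mt-Nd5, beside a median of 44.7%. The mean deviation from the gene's overall mean was 0.09, −0.53, −0.52, 0.34 and 0.63 on the log2 scale for mt-Nd2 in replicates 1 to 5, and −0.38, −0.26, −0.27, 0.16 and 0.75 for mt-Rnr1. mt-Nd6 ran the other way, at −0.11, 0.30, 0.28, −0.19 and −0.27. These are descriptions with no test, and what the number stands for is not given in the sources used here.

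**Figure D5:**
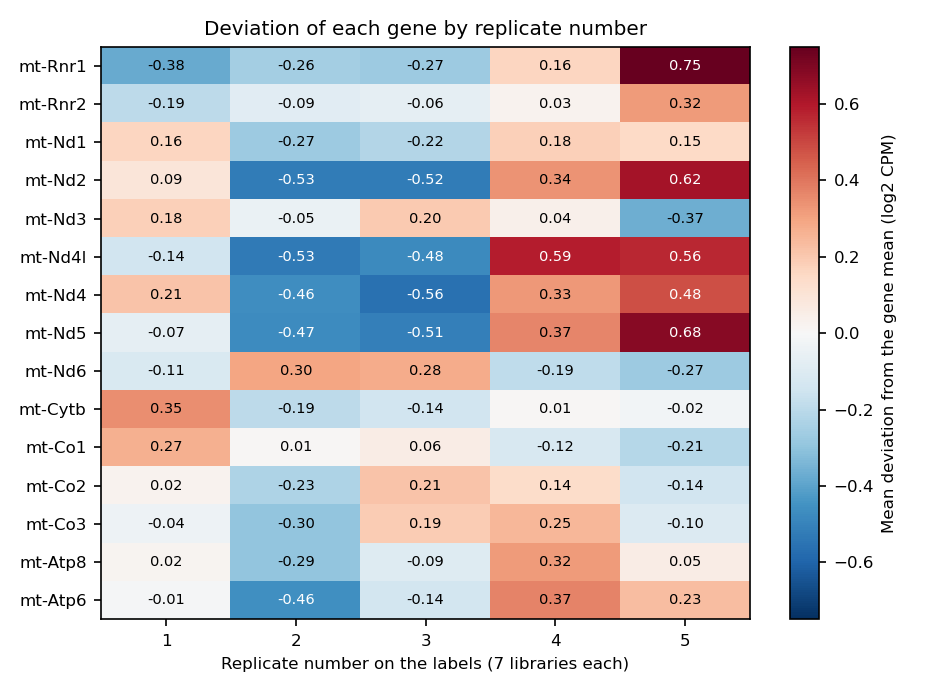
Mean deviation of log2 CPM from the gene's mean over all 35 libraries, for the 15 tested mtDNA genes (rows) by replicate number (columns, 7 libraries each). mt-Nd2, mt-Nd4, mt-Nd5 and mt-Nd4l lie below their mean in replicates 2 and 3 and above it in replicates 4 and 5, and mt-Nd6 shows the opposite signs.

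Nuclear genes encode the proteins that transcribe and replicate mtDNA and process or stabilise its RNA. Of 43 such genes, 13 were higher and 0 lower in G-NHX9 against Empty, 6 and 1 in G-NHX9-8FA, 25 and 0 in G-NHX9-midi, 12 and 2 in G-NHX9-21FGAA, 9 and 2 in G-NHX9-midi-21FGAA and 8 and 2 in G-NHX9-DDNA. Of all genes, 16.9%, 13.4%, 20.5%, 14.7%, 9.59% and 9.85% were higher in the same order of groups. In G-NHX9-midi, the median log2 fold change was 0.31 over the 11 transcription genes, 0.23 over the 10 replication genes, 0.44 over the 4 processing genes and 0.29 over the 18 stability and decay genes, beside 0.02 over all genes. Leaving out 1 library at a time gave 8 to 13 higher in G-NHX9, with 8 without its replicate 5. In G-NHX9-8FA it gave 2 to 7, with 2 or 3 without Empty replicates 3, 4 or 5 or its own replicates 4 or 5. In G-NHX9-midi it gave 16 to 27, with 16 without Empty replicate 4 or 5. The ranges were 8 to 14 in G-NHX9-21FGAA, 5 to 12 in G-NHX9-midi-21FGAA (5 without its replicate 4) and 3 to 11 in G-NHX9-DDNA (3 to 5 without Empty replicates 2, 4 or 5 or its own replicates 1, 2 or 3), and 0 to 2 were lower in every case. With the replicate number as a block, 20 were higher in G-NHX9 and 14 in G-NHX9-midi-21FGAA. Without TMM, the numbers higher were 28, 11, 33, 25, 21 and 17. The median log2 fold changes of the 43 were then 0.364, 0.176, 0.428, 0.347, 0.255 and 0.24. Those of all genes, which TMM moves by 0.05 to 0.19, were 0.186, 0.077, 0.141, 0.165, 0.119 and 0.122. Shares of all genes called in these alternative fits are not given here.

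The dimethyltransferase gene Tfb1m rose by 0.72 in G-NHX9-midi (adjusted p = 4.4e-05), and the RNA-stabilising Lrpprc by 0.56 (adjusted p = 0.00030). The mitochondrial topoisomerase gene Top1mt rose there by 0.79 (adjusted p = 1.3e-05), and Trmt10c, a subunit of mitochondrial RNase P, by 0.46 (adjusted p = 0.019). The mtDNA helicase gene Twnk rose by 0.58 in G-NHX9 (adjusted p = 2.1e-05), and Mterf2, of the termination factor family, by 1.14 in G-NHX9-21FGAA (adjusted p = 0.00064). Hsd17b10, another subunit of RNase P, fell by 0.66 in G-NHX9-midi-21FGAA (adjusted p = 0.00079), and Primpol, a primase-polymerase, by 0.40 in G-NHX9-DDNA (adjusted p = 0.018). In G-NHX9-midi-21FGAA against G-NHX9-midi, 14 of the 43 were lower and 1 higher, beside 22.2% and 21% of all genes.

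Of 81 nuclear genes for subunits of complexes I to V, few were called against Empty: 1 higher and 5 lower in G-NHX9, 2 and 1 in G-NHX9-8FA, 5 and 0 in G-NHX9-midi, 4 and 8 in G-NHX9-21FGAA, 4 and 6 in G-NHX9-midi-21FGAA and 4 and 5 in G-NHX9-DDNA. Of all genes, 15.2%, 13.2%, 20%, 12.5%, 7.32% and 7.35% were lower in these comparisons. Higher were 16.9%, 13.4%, 20.5%, 14.7%, 9.59% and 9.85%. The direction depended on scaling. Without TMM the 81 gave 14 and 0, 5 and 1, 31 and 0, 16 and 2, 10 and 2, and 9 and 3. Their median log2 fold changes were then 0.08, 0.114, 0.127, 0.085, 0.087 and 0.063. Those of all genes were 0.186, 0.077, 0.141, 0.165, 0.119 and 0.122. Shares of all genes called without TMM or under the replicate block are not given here. Under the replicate block, 2 of the 81 were higher and 10 lower in G-NHX9, and 8 were lower in G-NHX9-DDNA. In G-NHX9-8FA against G-NHX9, 9 were higher and 1 lower, beside 6.43% and 8.04% of all genes, which became 1 and 4 without TMM. In G-NHX9-midi-21FGAA against G-NHX9-midi, 15 were lower and 4 higher, beside 22.2% and 21% of all genes.

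These numbers moved strongly with single libraries. In G-NHX9 against Empty, between 2 and 15 of the 81 were lower as 1 library was left out, with 15 without G-NHX9 replicate 3, 11 without Empty replicate 4, 8 without Empty replicate 5, and 2 or 3 without Empty replicates 2 or 3 or G-NHX9 replicates 1 or 4. The numbers lower ran from 3 to 12 in G-NHX9-21FGAA, with 3 to 5 in 8 of the 10 fits, from 3 to 8 in G-NHX9-midi-21FGAA, from 2 to 6 in G-NHX9-DDNA and from 0 to 3 in G-NHX9-midi, and the numbers higher against Empty from 0 to 9 over the 6 constructs. In G-NHX9-8FA against G-NHX9, between 1 and 16 were higher, with 16 without G-NHX9 replicate 3, 1 without G-NHX9 replicate 5, and 2 to 5 without G-NHX9 replicates 1 or 4 or G-NHX9-8FA replicates 1 or 4. In G-NHX9-midi-21FGAA against G-NHX9-midi, 9 to 16 were lower, with 9 without G-NHX9-midi replicate 4 or G-NHX9-midi-21FGAA replicate 5.

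Among these subunits, Ndufa7 of complex I fell by 0.50 in G-NHX9-21FGAA (adjusted p = 0.0061), Uqcrq of complex III by 0.66 in G-NHX9-midi-21FGAA (adjusted p = 0.0036), and Sdha of complex II by 0.23 in G-NHX9-8FA (adjusted p = 0.0023). Larger changes were seen in tissue-restricted isoforms of complex IV at low levels. Cox6a2 averaged 18.5 ± 12.8 CPM in Empty and 0.683 ± 0.764 in G-NHX9-DDNA (log2 −4.76, adjusted p = 0.00064), and Cox4i2 averaged 0.205 in Empty and 1.67 in G-NHX9 (log2 3.03, adjusted p = 9.8e-05). Atp5a1 and Atp5b, the catalytic head of complex V, each rose by 0.33 in G-NHX9-DDNA (adjusted p = 0.016 and 0.026).

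Of 9 nuclear regulators of mitochondrial genes, 3 were higher in G-NHX9 and none lower, beside 16.9% and 15.2% of all genes. The coactivator gene Ppargc1a rose from a mean of 0.0365 CPM in Empty, less than 3 counts give in any library, to 1.13 in G-NHX9 (adjusted p = 7.4e-09), and Myc from 41.7 to 81.9 (log2 0.98, adjusted p = 0.00019). Ppargc1b fell by 0.97 in G-NHX9-8FA (adjusted p = 0.0040). Of 13 genes for abundant mitochondrial proteins of import, folding and the outer membrane, 8 were higher and 1 lower in G-NHX9-midi, beside 20.5% and 20% of all genes. There the import receptor gene Tomm70a rose by 0.65 (adjusted p = 1.4e-06) and the chaperone gene Hspa9 by 0.57 (adjusted p = 0.0035). At most 3 were higher in each other construct against Empty. Transcripts retained in the nucleus gave 0 or 1 of 5 called in each comparison with Empty, among them Neat1, which fell by 0.66 in G-NHX9-midi (adjusted p = 0.017).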

How the data were processed

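The authors deposited raw counts of reads per gene, without normalization; the submitters' processing notes name STAR 2.7.0d, HTSeq 0.11.2, DESeq2 and mm10, and annotation, strand setting and treatment of multiply mapped reads are not given in the sources used here. The tests were run in edgeR 4.0.16 under R 4.3.3 (filterByExpr by group, which left 17166 genes holding 99.96% of counts, TMM, quasi-likelihood fit with 1 mean per group over 35 libraries, Benjamini-Hochberg). DESeq2 1.42.0, RLE size factors, scaling on nuclear genes, no TMM, no filter, the compared groups alone, libraries of 8 weeks alone, each library left out and the replicate number as a block were alternatives. Copies were aligned with BLASTN 2.17.0 between GENCODE M21 transcripts, and figures were drawn with matplotlib 3.10.9. The deviations of libraries with the same replicate number on the labels correlated by 0.232 on average, others by −0.0571, and all 5 pairs exceeded 0.1 in 5 of 10 comparisons, where the number was taken to pair the libraries. Values are from the fit without the block. The blocked value stands beside those of these 5 comparisons whose call it changed. It also stands beside some calls that it left in place and some of the other comparisons. The fit was tested on simulated data. Of each list of nuclear genes, the text could name the 3 with the largest called change against Empty. Members and lists were chosen with earlier results of these data known. A marker gene withheld from the text is not reported here.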

Additional observations from a re-analysis of the deposited data

Results flagged for a closer look

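In 133 groups of 5 values, the gap between an extreme library and its nearest neighbour, relative to the group's range, exceeded Dixon's 95% limit of 0.71 in 4, beside 6.65 that chance gives at 1 in 20. mt-Co3 in G-NHX9-21FGAA replicate 3 was 22.5 CPM, with the other 4 between 13.9 and 15.3. mt-Nd4l in G-NHX9 replicate 5 was 1.48 CPM, with the others between 0.0580 and 0.396. mt-Cytb in G-NHX9 replicate 1, the library of an 11-week donor, was 656 CPM, with the others between 362 and 411. The summed protein genes in the same library were 10617 CPM, with the others between 6879 and 7737.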

How the results depend on the processing

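The rise of mt-Co3 in G-NHX9-8FA and the fall of mt-Nd6 in G-NHX9-midi-21FGAA against G-NHX9-midi passed in every alternative run. Shares of all genes called in the alternative settings are not given here. The number of protein genes called was small and moved with the setting, and the cause was not tested. Without TMM, 1 was higher in G-NHX9 and 1 higher and 0 lower in G-NHX9-midi-21FGAA against Empty, and 0 were higher in G-NHX9-8FA against G-NHX9, and the summed Empty level was 8683 CPM. Without a filter, 1 was higher in G-NHX9-8FA against Empty and 0 against G-NHX9. With the replicate block, 1 was lower in G-NHX9, 3 in G-NHX9-21FGAA, 2 in G-NHX9-midi-21FGAA (1 higher) and 2 in G-NHX9-DDNA against Empty, 3 were higher in G-NHX9-8FA and 1 lower in G-NHX9-DDNA against G-NHX9, and 3 were lower in G-NHX9-midi-21FGAA against G-NHX9-midi. In the 5 paired comparisons the block changed no call on a member beyond those given beside the results. In the others, 2 to 4 of the 5 pairs of libraries with the same number exceeded the correlation of 0.1. There, against Empty, the block added mt-Co1 (−0.39, adjusted p = 0.0022), mt-Cytb (−0.43, 0.016) and mt-Nd4l (−1.43, 0.045) lower in G-NHX9-21FGAA. It also added mt-Rnr1 lower in G-NHX9-8FA (−0.70, 0.039) and G-NHX9-midi (−0.69, 0.032). Against G-NHX9 it added mt-Nd3 (0.67, 0.031) and mt-Co1 (0.37, 0.0055) higher in G-NHX9-8FA. Against G-NHX9-midi it added mt-Co1 (−0.31, 0.0076) and mt-Atp8 (−0.86, 0.040) lower in G-NHX9-midi-21FGAA. With the compared groups alone, 1 was higher in G-NHX9-8FA and 1 lower in G-NHX9-DDNA against Empty, 0 were higher in G-NHX9-8FA and 1 lower in G-NHX9-DDNA against G-NHX9, and 2 were lower in G-NHX9-midi-21FGAA against G-NHX9-midi. With libraries of 8 weeks alone, 1 was lower in G-NHX9, 1 in G-NHX9-21FGAA and 0 in G-NHX9-midi-21FGAA (1 higher) against Empty, and 3 were higher in G-NHX9-8FA against G-NHX9. DESeq2 called 1 lower in G-NHX9-21FGAA, and adding the copies gave 2 higher in G-NHX9-8FA against G-NHX9. Leaving out each library in turn gave 1 to 2 higher in G-NHX9-8FA, 0 to 1 higher in G-NHX9-midi, 0 to 1 lower in G-NHX9, 0 to 2 lower in G-NHX9-21FGAA and 0 to 1 lower in G-NHX9-midi-21FGAA against Empty, 0 to 3 higher in G-NHX9-8FA against G-NHX9 and 1 to 3 lower in G-NHX9-midi-21FGAA against G-NHX9-midi. Not divided by length, mt-Co1 held 82.9% and mt-Nd6 0.234% of the protein-gene level.

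No difference was called in a fit in which its sign changed. mt-Nd6 in G-NHX9 became −0.037 with 8 weeks alone, and ran from −0.057 to 0.106 (−0.038, −0.057, −0.015 and −0.007 without Empty replicates 1 and 5 and G-NHX9 replicates 1 and 2) as single libraries were left out. In the same way it ran from −0.011 (without replicate 3) to 0.238 in G-NHX9-8FA and from −0.008 (without replicate 2) to 0.194 in G-NHX9-midi. Against G-NHX9, mt-Nd6 in G-NHX9-8FA became −0.037 without TMM and ran from −0.042 to 0.207. mt-Rnr1 with 8 weeks alone became 0.391 in G-NHX9, 0.003 in G-NHX9-8FA and 0.224 in G-NHX9-DDNA against Empty. Against G-NHX9 it ran from −0.464 to 0.047 in G-NHX9-8FA and from −0.478 to 0.273 in G-NHX9-DDNA (0.042 and 0.036 without replicates 2 and 3), and the difference between the FG effects from −0.431 to 0.079, each highest without G-NHX9 replicate 5. mt-Rnr2 ran from −0.159 to 0.061 in G-NHX9-8FA. In G-NHX9-DDNA it became 0 without a filter and 0.015 with 8 weeks alone, and ran from −0.249 to 0.085 (0.009, 0.005, 0.073, 0.065 and 0.081 among them).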
